A study of Homo sapiens with 8 samples.

Results

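The 9 genes described here are the cadherins CDH1 and CDH2, the intermediate filament gene VIM, the matrix genes FN1, TGFBI and SPARC, and the transcription factor genes SNAI2, ZEB1 and TWIST1. They were taken by symbol as genes of the epithelial-mesenchymal transition. All 9 were found among the 28281 genes of the table, and all 9 passed the filter on low values that left 15350 genes for testing. RNA came from KYSE70, a line of cancer cells grown from a squamous carcinoma of the human esophagus, so all samples are cultures of 1 cell line without added stroma. The groups were cells without treatment (n = 3), cells treated for 72 h with 10 µM pyrimethamine (n = 2) and cells treated for 72 h with 20 nM mitoxantrone (n = 3). The series title names both compounds as NRF2 inhibitors. Pyrimethamine is an antifolate, and mitoxantrone is a poison of type II topoisomerases. The labels name no vehicle control and do not say whether replicates were separate cultures, and the p-values therefore reflect variation among the libraries given, part or all of which may be technical.

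In the epithelial-mesenchymal transition, cells held together by E-cadherin (CDH1) lose those contacts and take up N-cadherin (CDH2), vimentin filaments (VIM) and a matrix rich in fibronectin (FN1). Repressors of the SNAI, ZEB and TWIST families bind E-box sequences in the promoters of epithelial genes such as CDH1, and TGF-beta is a well-known inducer of the programme. ZEB1 and the microRNAs of the miR-200 family repress each other, and miR-205 also targets ZEB1. Squamous and basal epithelia express SNAI2 as part of their normal state, so its presence alone does not mark a transition.

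The sequences shown first are the start regions of the 3 members with the largest changes under mitoxantrone, from 250 bases before to 50 bases after the start of transcription. They come from RefSeq on GRCh38.p14 and are written 5′ to 3′ on the strand of the gene, with GC boxes (GGGCGG or CCGCCC, the same motif read on either strand) in capitals. The CDH2 window, the first of 2 RefSeq starts, lies on the minus strand at chr18:28177081-28177380. The VIM window lies on the plus strand at chr10:17227991-17228290. The TGFBI window lies on the plus strand at chr5:136028738-136029037.
CDH2: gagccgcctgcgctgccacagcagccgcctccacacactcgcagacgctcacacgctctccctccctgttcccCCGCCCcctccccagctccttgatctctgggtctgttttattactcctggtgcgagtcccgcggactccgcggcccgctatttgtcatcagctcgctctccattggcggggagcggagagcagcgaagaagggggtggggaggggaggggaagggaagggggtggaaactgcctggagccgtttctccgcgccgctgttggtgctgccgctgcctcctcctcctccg
VIM: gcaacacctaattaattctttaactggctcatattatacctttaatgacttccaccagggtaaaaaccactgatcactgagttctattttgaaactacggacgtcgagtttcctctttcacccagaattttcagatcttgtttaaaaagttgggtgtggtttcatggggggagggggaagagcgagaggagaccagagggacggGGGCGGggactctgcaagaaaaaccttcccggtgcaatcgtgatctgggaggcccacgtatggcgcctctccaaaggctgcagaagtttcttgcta
TGFBI: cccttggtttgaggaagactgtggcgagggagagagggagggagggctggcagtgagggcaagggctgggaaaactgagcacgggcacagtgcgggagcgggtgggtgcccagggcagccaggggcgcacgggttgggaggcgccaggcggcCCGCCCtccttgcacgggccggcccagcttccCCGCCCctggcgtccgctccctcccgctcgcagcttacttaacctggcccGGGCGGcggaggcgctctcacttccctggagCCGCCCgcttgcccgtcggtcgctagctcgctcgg
The TGFBI window held 4 GC boxes, and the CDH2 and VIM windows held 1 each; 45.0% of 35116 promoters of the same length held at least 1. None of these 3 windows held the E-box letters CANNTG, which 68.7% of the promoters held; the window of the second CDH2 start, at chr18:28036592-28036891, held 1 of them and no GC box. The motif CAGGTG or CACCTG, a subset of CANNTG, was in 20.6% of the promoters, and among the windows read for 6 members (CDH2, VIM, FN1, ZEB1, TGFBI and SPARC) only 2 of the 7 start windows of ZEB1 held it. These counts describe letters in short windows and say nothing of whether a factor binds there.

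MicroRNAs that target ZEB1 are shown because the host transcript of 1 of them, MIR205HG, changed with both compounds. The mature sequences are from RefSeq on GRCh38.p14, with the seed (bases 2 to 8) in capitals. Beside each stands 1 stretch of 22 bases of the ZEB1 3′ untranslated region (ENST00000320985.14, GENCODE 29 on GRCh38, plus strand) with the match to that seed in capitals, at chr10:31528075-31528096 for miR-205, chr10:31527626-31527647 for miR-200c and chr10:31528039-31528060 for miR-141.
hsa-miR-205-5p: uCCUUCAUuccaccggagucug
hsa-miR-200c-3p: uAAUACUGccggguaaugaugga
hsa-miR-141-3p: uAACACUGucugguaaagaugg
ZEB1 site for hsa-miR-205-5p: gtaacatATGAAGGatatgaca
ZEB1 site for hsa-miR-200c-3p: atcttatCAGTATTatcactct
ZEB1 site for hsa-miR-141-3p: tcagaatCAGTGTTtgtgattg
The 1938 bases of this region held 1 match to the seed of miR-205, 5 to that of miR-200c and 3 to that of miR-141. Of 12702 untranslated regions, 11.5%, 17.6% and 19.3% held at least 1 match to the same seeds, in that order. Mature microRNAs were not measured in these libraries; only their host transcripts were.

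Recovered read totals ran from 17555689 to 24774358 per library. All 10 squamous keratinocyte markers examined were above the filter, a mean of 10, but at very unlike levels. KRT5 was highest, at 46713 to 84458 over the libraries, while KRT14 was at 13.2 to 91.0 and KRT17 at 238 to 541. The summed normalised read counts of these markers were 126616 to 133825 in untreated cells, 102664 and 98397 with pyrimethamine, and 96375 to 96723 with mitoxantrone. The part of this fall in the results below was not tested. With mitoxantrone 1 of the 10 was called higher (PERP, mean 9222 untreated and 20787 treated) and 4 lower. Those 4, SOX2, DSG3, TP63 and DSC3, fell by 2.51, 2.26, 1.91 and 0.96 on the log2 scale (limma, adjusted p = 0.000326, 0.00166, 0.000425 and 0.0406). The largest difference in the sum was that of KRT5, at a mean of 81811 in untreated cells and 47598 with mitoxantrone (limma, adjusted p = 0.0551). Leukocyte markers summed to 3.80 to 5.51 in untreated and 10.3 to 24.5 in treated libraries, with CD3E at 0 in 7 of 8 libraries. Endothelial markers, nearly all of it VWF, summed to 70.8 to 96.4 in untreated cells, 353 and 181 with pyrimethamine and 91.2 to 203 with mitoxantrone. The pyrimethamine libraries differed far more from each other than other replicates did, with a Pearson correlation over genes of 0.890 against 0.981 to 0.990 within the other groups. Log2 deviations from untreated cells were related to transcript length: over 14034 tested genes the Spearman correlation was -0.420, -0.420 and -0.397 for mitoxantrone replicates 1 to 3, and 0.348 and -0.386 for pyrimethamine replicates 1 and 2; the part of length in any result was not tested beyond the length-adjusted values given.

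**Figure D1:**
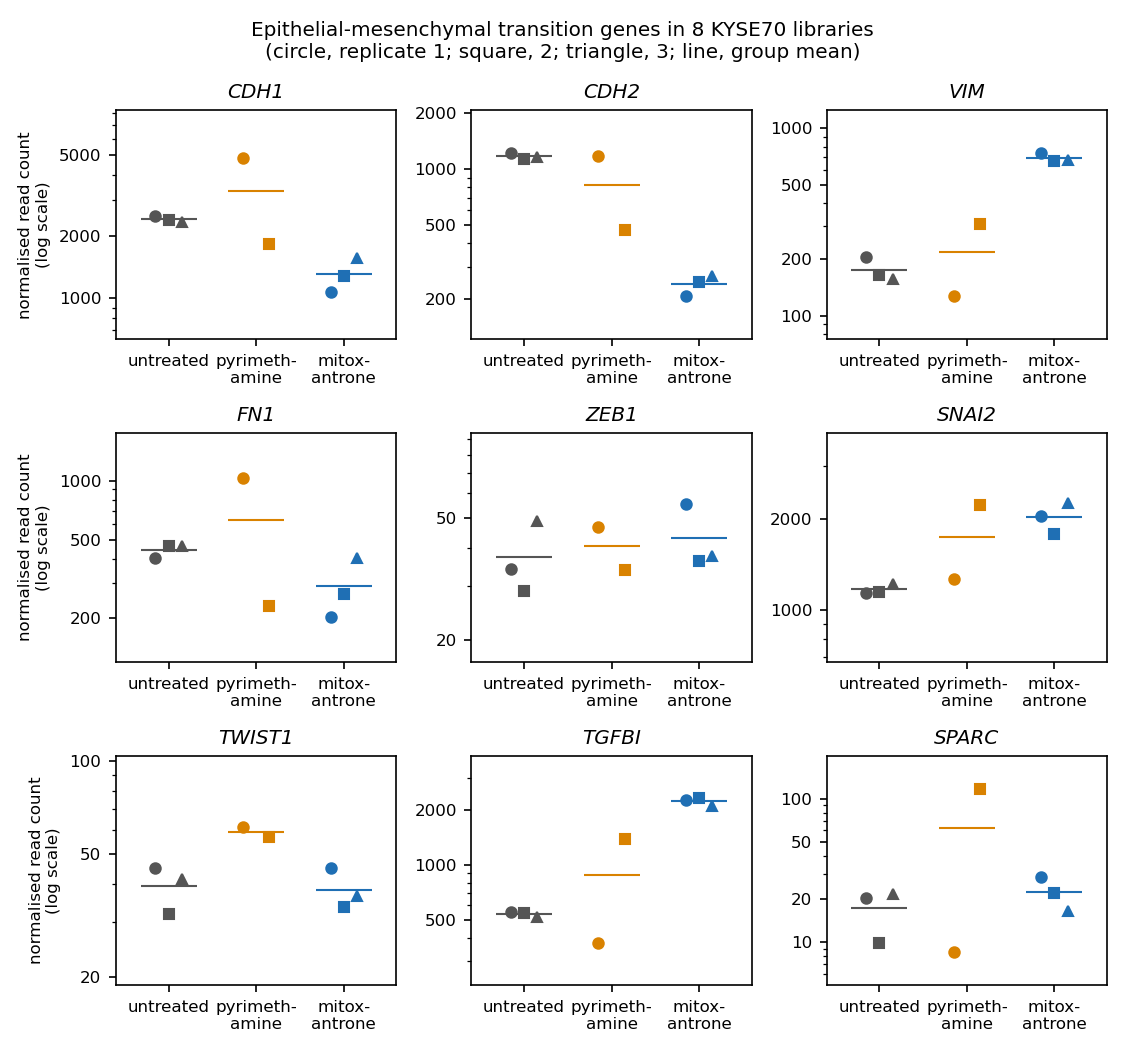
Normalised read count (log axis) of each of the 9 genes in every library, by group, with circles, squares and triangles for replicates 1, 2 and 3 and a line at the group mean. CDH2 lies between 208 and 267 in the mitoxantrone libraries and at 1136 or more in untreated cells, while TGFBI and VIM lie higher with mitoxantrone, and the pyrimethamine libraries fall on opposite sides of the untreated libraries for 5 genes.

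In untreated cells the order of the members was set by an epithelial cadherin and a squamous-associated repressor at the top. Expressed as normalised read count per kilobase of transcript, the level of CDH1 was 496 ± 15.02 (SD, n = 3) and that of SNAI2 was 482 ± 18.4, and the ranges of these 2 genes over libraries overlapped. On the same per-kilobase scale the level of CDH2 was 271 ± 9.23, that of TGFBI 192 ± 5.95, that of VIM 94.2 ± 14.0 and that of FN1 56.2 ± 4.60. The lowest per-kilobase levels were those of TWIST1 at 23.7 ± 4.07, ZEB1 at 6.86 ± 1.90 and SPARC at 4.67 ± 1.75, with overlapping ranges for ZEB1 and SPARC. KYSE70 cells therefore carried transcripts of both cadherins at baseline, CDH1 above CDH2 in each of the 3 untreated libraries, and little ZEB1 or SPARC. All other neighbours in the order were separated in every untreated library.

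With mitoxantrone the order of the per-kilobase levels changed. SNAI2 stood first at 839 ± 100.05 (SD, n = 3), followed by TGFBI at 795 ± 40.4, VIM at 372 ± 19.0 and CDH1 at 268 ± 51.4. CDH2 stood at 55.6 ± 6.96, FN1 at 36.7 ± 13.1, TWIST1 at 23.0 ± 3.53, ZEB1 at 7.93 ± 1.97 and SPARC at 6.03 ± 1.61. The ranges of SNAI2 and TGFBI, of CDH2 and FN1, of FN1 and TWIST1, and of ZEB1 and SPARC overlapped, so those neighbours were not separated. VIM stood above CDH1 in all 3 mitoxantrone libraries and below it in all 3 untreated libraries.

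With mitoxantrone both cadherins were lower and VIM, TGFBI and SNAI2 higher. The changes of CDH1 and SNAI2 were ordinary in size: 24.6% of tested genes had a lower log2 fold change than CDH1, and 28.0% a higher one than SNAI2. Both lay inside the 5% to 95% span of genes of like length, -2.02 to 1.52 for CDH1 and -1.63 to 2.12 for SNAI2. For VIM 7.10% of tested genes had a higher log2 fold change. Of the 9 members, 3 were called higher than in untreated cells and 2 lower by limma with Benjamini-Hochberg adjustment over all tested genes, at an adjusted p below 0.05. Of all genes tested, 54.9% were called in this comparison, 26.8% higher and 28.1% lower, so 5 of 9 members is a share near the background. All 3 mitoxantrone libraries lay above every untreated library for 3 members and below every one for 2. The same was true of 40.4% and 39.5% of all tested genes, so such separation is common in these data. Changes are log2 fold changes on the log2(value + 1) scale, which understates the change of low genes. Standard errors, intervals and p-values use a spread shared by all groups. The pyrimethamine libraries, which differed widely from each other, therefore enter the tests of mitoxantrone against untreated cells too. In bulk RNA, fewer cells expressing a gene and less RNA of it per cell cannot be told apart.

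CDH1 encodes E-cadherin, the adhesion molecule of epithelial junctions. Its gene lies at chr16:68737225-68835548 on the plus strand (GENCODE 29, GRCh38). Normalised read counts of CDH1 were 2504, 2402 and 2362 in untreated replicates 1 to 3, 4848 and 1829 with pyrimethamine, and 1072, 1286 and 1573 with mitoxantrone. All 3 mitoxantrone libraries were below every untreated library, and the pyrimethamine libraries were one far above and one below. CDH1 fell by 0.90 ± 0.33 (SE) on the log2 scale with mitoxantrone (limma, adjusted p = 0.0465), a level 1.87-fold lower. This call was lost when any one untreated or mitoxantrone library was left out (adjusted p 0.063 to 0.148) and after adjustment for transcript length, where the change was -0.48 (adjusted p = 0.105). It was also lost without the filter on low values (adjusted p = 0.0592), with upper-quartile scaling (0.0673) and with quantile normalisation (0.104). Replicate blocks by title or description numbers lost it too (limma, adjusted p = 0.068 and 0.0885). The call was kept in a fit of the untreated and mitoxantrone libraries alone (limma, adjusted p = 1.02e-05) and with library weights (1.44e-07). In those 2 fits 77.1% and 80.9% of all tested genes were called.

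CDH2 encodes N-cadherin, typical of neural and mesenchymal cells, and lies at chr18:27950966-28177446 on the minus strand. CDH2 had normalised read counts of 1215, 1136 and 1165 in untreated cells, 1174 and 471 with pyrimethamine, and 208, 248 and 267 with mitoxantrone. The mitoxantrone libraries lay below all other libraries, pyrimethamine replicate 1 lay inside the untreated range and replicate 2 below it. CDH2 fell by 2.29 ± 0.30 with mitoxantrone (limma, adjusted p = 0.00106), a level 4.87-fold lower, and 1.92% of tested genes had a lower log2 fold change. With length adjustment its change was -1.92 (limma, adjusted p = 0.000403). Among 3239 genes with transcripts of 0.8 to 1.25 times its length, 5% to 95% of log2 fold changes spanned -1.98 to 1.59, and CDH2 lay below that range.

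VIM encodes vimentin, the intermediate filament of mesenchymal cells, and lies at chr10:17228259-17237593 on the plus strand. The normalised read counts of VIM were 206, 166 and 157 in untreated cells, 127 and 309 with pyrimethamine, and 736, 670.1 and 679.5 with mitoxantrone. Every mitoxantrone library was above every other library. VIM rose by 1.98 ± 0.30 with mitoxantrone (limma, adjusted p = 0.0017), a 3.96-fold higher level. Its length-adjusted change was 1.60 (limma, adjusted p = 0.00073), and its change lay inside the 5% to 95% span of genes of like length, -1.46 to 2.25. VIM-AS1, an antisense gene that shares 641 exonic bases with VIM, ran from 8.30 to 45.3 over the libraries, and since the strand setting of the counting is not given in the sources used here, reads of the pair cannot be told apart.

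TGFBI encodes a secreted matrix protein induced by TGF-beta, and lies at chr5:136028895-136063818 on the plus strand. In normalised read counts TGFBI stood at 551, 546 and 519 in untreated cells, 375 and 1392 with pyrimethamine, and 2271, 2316 and 2101 with mitoxantrone. All mitoxantrone libraries were far above the untreated ones, and the pyrimethamine libraries lay one below and one above. TGFBI rose by 2.05 ± 0.40 with mitoxantrone (limma, adjusted p = 0.0044), a 4.13-fold higher level, with 6.63% of tested genes higher. Its length-adjusted change was 2.07, and it lay above the 5% to 95% span of genes of like length, -1.75 to 1.89.

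FN1 encodes fibronectin, a core matrix protein, and lies at chr2:215360440-215436172 on the minus strand. Over the libraries FN1 had normalised read counts of 402, 466.5 and 462 in untreated cells, 1025 and 230.4 with pyrimethamine, and 202, 265 and 404 with mitoxantrone. The mitoxantrone and untreated groups overlapped, because mitoxantrone replicate 3 reached the untreated range. The log2 fold change was -0.67 ± 0.50 (limma, adjusted p = 0.273; 95% interval -1.81 to 0.47). In a fit of the untreated and mitoxantrone libraries alone the same change passed the test (limma, adjusted p = 0.00822), as it did without pyrimethamine replicate 1 (0.00846) or replicate 2 (0.00921). With length adjustment the change was -0.06.

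SPARC encodes a secreted matrix glycoprotein of mesenchymal cells, and lies at chr5:151661096-151687165 on the minus strand. SPARC was counted at normalised read counts of 20.2, 9.88 and 21.8 in untreated cells, 8.56 and 116 with pyrimethamine, and 28.4, 21.9 and 16.5 with mitoxantrone. The antisense gene CLMAT3, at 0 to 4.11, shares 381 exonic bases with SPARC, so with no strand setting given the low SPARC values are uncertain. One library, pyrimethamine replicate 2, stood far above the rest, and the other 7 overlapped. With 13 to 22 reads in 7 libraries and 113 in pyrimethamine replicate 2, the mitoxantrone change of 0.39 had a 95% interval of -1.49 to 2.28 (limma, adjusted p = 0.697). Fibroblast markers moved with SPARC in part: in pyrimethamine replicate 2, COL1A2 was 213 against 2.21 to 28.0 elsewhere and DCN 27.8 against 1.14 to 18.1, while LUM was 38.1 there and 34.2 to 62.8 with mitoxantrone. COL1A1 and THY1 were higher in pyrimethamine replicate 1, at 1787.5 and 2046, than in replicate 2, at 1254 and 1554. In both libraries they were above their untreated ranges of 890 to 981 and 1090 to 1197. COL3A1 was at 253 in replicate 1 and 306.5 in replicate 2, against 189 to 210 in untreated cells. The 8 fibroblast markers in the table summed to 2269 to 2409 in untreated cells, 4112 and 3408 in pyrimethamine replicates 1 and 2, and 2333 to 2578 with mitoxantrone. Their part in the SPARC value was not tested.

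SNAI2 encodes the repressor Slug and lies at chr8:48917604-48921740 on the minus strand. For SNAI2 the normalised read counts were 1142, 1148 and 1222.5 in untreated cells, 1272 and 2229 with pyrimethamine, and 2049, 1787 and 2272 with mitoxantrone. All 5 treated libraries were above all 3 untreated libraries. SNAI2 rose by 0.79 ± 0.22 with mitoxantrone (limma, adjusted p = 0.0172), a 1.73-fold higher level, and by 0.66 with length adjustment. The call was lost without untreated replicate 1 (adjusted p = 0.0592) or 2 (0.0597) and without mitoxantrone replicate 1 (0.0575) or 3 (0.0601).

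ZEB1, a repressor of CDH1, lies at chr10:31318495-31529814 on the plus strand and was low. ZEB1 had normalised read counts of 34.0, 28.9 and 48.7 in untreated cells, 46.8 and 33.9 with pyrimethamine, and 55.3, 36.2 and 37.5 with mitoxantrone. The groups overlapped. With 28 to 82 reads per library, the log2 fold change with mitoxantrone was 0.21 (limma, adjusted p = 0.581; 95% interval -0.51 to 0.93), so a change within that interval could not be told from 0. The antisense gene ZEB1-AS1, which shares 366 exonic bases with ZEB1, was at 48.5 to 99.3, above ZEB1 in range, and without a known strand setting the ZEB1 values are uncertain.

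TWIST1, a repressor of the basic helix-loop-helix class, lies at chr7:19020991-19117672 on the minus strand. The TWIST1 normalised read counts were 45.0, 31.9 and 41.5 in untreated cells, 61.1 and 56.6 with pyrimethamine, and 44.9, 33.6 and 36.4 with mitoxantrone. Both pyrimethamine libraries were above all others, and the mitoxantrone and untreated groups overlapped. The log2 fold change with mitoxantrone was -0.04 (limma, adjusted p = 0.905; 95% interval -0.63 to 0.55), at 26 to 107 reads per library.

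**Figure D2:**
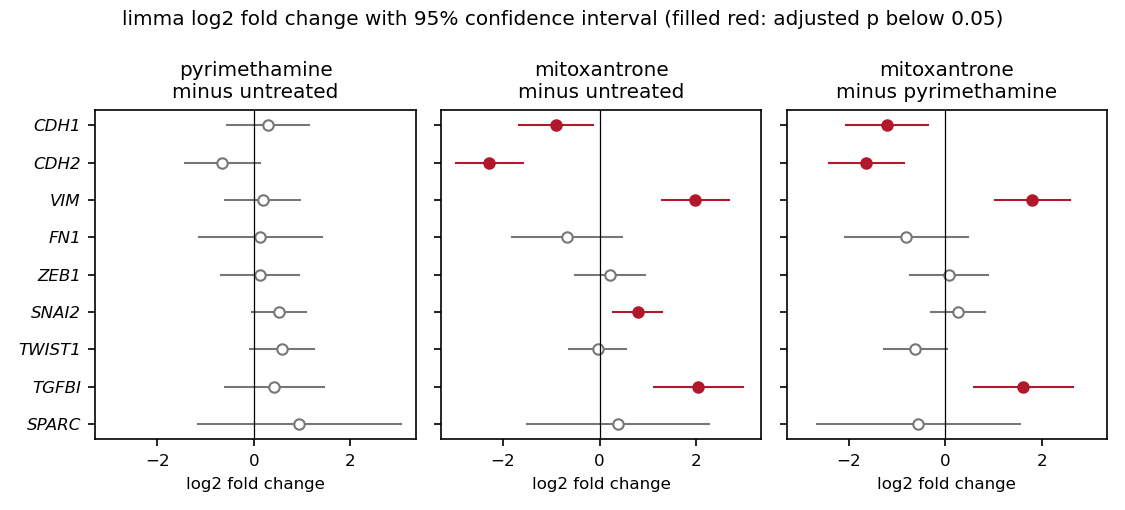
limma log2 fold changes (points) with 95% confidence intervals (lines) of the 9 genes in the 3 comparisons, filled red where the adjusted p is below 0.05. CDH2, VIM and TGFBI have intervals far from 0 with mitoxantrone, and no interval excludes 0 with pyrimethamine.

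Pyrimethamine gave no member a change that passed the test. By limma, 0 of 9 were called and 0 had an unadjusted p below 0.05, and edgeR and DESeq2 on recovered reads also called 0. Of all tested genes 3.6% were called, 2.29% higher and 1.31% lower. The log2 fold changes ran from -0.66 for CDH2 (adjusted p = 0.342) to 0.95 for SPARC (adjusted p = 0.632). Those nearest to the threshold were 0.52 for SNAI2 (adjusted p = 0.292) and 0.58 for TWIST1 (adjusted p = 0.32), the members with both pyrimethamine libraries above the untreated range. Both libraries lay above it for 15.8% of tested genes.

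The pyrimethamine libraries differed in direction. For 5 members the pyrimethamine libraries lay on opposite sides of the untreated range, against 44.3% of tested genes. CDH1 and FN1 were above it in replicate 1 and below it in replicate 2, and VIM, TGFBI and SPARC the other way round. ZEB1 lay inside the range in both, and CDH2 inside it in replicate 1 and below it in replicate 2. Without replicate 1, limma called 6 members, 4 higher (VIM, SNAI2, TGFBI and SPARC) and 2 lower (CDH2 and FN1). Without replicate 2 it called 3, with CDH1 and FN1 higher and TGFBI lower. In these fits 47.4% and 49.3% of all tested genes were called, in that order. Each of these fits assumes that the lone library varies like the other groups. CDH1, FN1, TGFBI, VIM and SPARC thus had no single direction under pyrimethamine. Without replicate 1 their log2 changes were -0.41, -0.94, 1.37, 0.82 and 2.75, in that order. Without replicate 2 they were 1.00, 1.21, -0.52, -0.45 and -0.86.

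Both treatments share the untreated controls. Set side by side, the log2 fold changes with pyrimethamine and mitoxantrone were 0.30 and -0.90 for CDH1, -0.66 and -2.29 for CDH2, 0.18 and 1.98 for VIM and 0.42 and 2.05 for TGFBI. The direct comparison of mitoxantrone with pyrimethamine called 4 of 9 members by limma, 2 higher and 2 lower, where 41% of tested genes were called, 21.2% higher and 19.9% lower. CDH1 was lower by 1.201 on the log2 scale with mitoxantrone than with pyrimethamine (adjusted p = 0.0362) and CDH2 by 1.63 (adjusted p = 0.0214). VIM was higher by 1.80 (adjusted p = 0.0192) and TGFBI by 1.62 (adjusted p = 0.0287). SNAI2 differed by 0.27 (adjusted p = 0.38; 95% interval -0.30 to 0.83) and TWIST1 by -0.62 (adjusted p = 0.108), although all mitoxantrone libraries lay below both pyrimethamine libraries for TWIST1. These calls rest on the spread of the untreated libraries too. In a limma fit of the 5 treated libraries alone 0 members and 0 of all tested genes were called. There 4 members and 6009 of 15350 tested genes had an unadjusted p below 0.05. The count of members was also 0 without mitoxantrone replicate 1 or replicate 2, where 0% and 0.013% of all tested genes were called. It was 2 without mitoxantrone replicate 3, where 16.7% of all tested genes were called. When any one untreated library was left out the count was 2, where 13.9% to 16.1% of all tested genes were called. Without pyrimethamine replicate 1 it was 5, where 35.3% of all tested genes were called, and without replicate 2 it was 6, where 75.8% were.

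Ratios within a library do not depend on its scaling. The 3 ratios shown were chosen after their values were seen, among 5 computed. The ratio of CDH2 to CDH1 per kilobase was 0.548, 0.534 and 0.557 in untreated cells, 0.273 and 0.291 with pyrimethamine, and 0.219, 0.218 and 0.192 with mitoxantrone. Here the pyrimethamine libraries were close to each other and below every untreated library, although each cadherin alone differed more than 2-fold between them. The 2 transcripts are of similar length, 4889 and 4332 bases. The exact two-sided permutation p was 0.2 for pyrimethamine and 0.1 for mitoxantrone against untreated cells, the smallest that 2 against 3 and 3 against 3 libraries allow.

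The ratio of VIM to CDH1 per kilobase was 0.190 ± 0.0223 (SD, n = 3) in untreated cells and 1.43 ± 0.338 with mitoxantrone, with no overlap, and 0.0687 and 0.442 with pyrimethamine, on either side of the untreated range. The transcripts differ in length, 1868 and 4889 bases, and the difference between the log2 changes of VIM and CDH1 with mitoxantrone was 2.89 as fitted and 2.08 with length adjustment. That of SNAI2 to CDH1 was 0.974 ± 0.0627 in untreated cells and 3.18 ± 0.577 with mitoxantrone, again with no overlap, and 0.528 and 2.45 with pyrimethamine. The difference between their log2 changes was 1.69 as fitted and 1.14 with length adjustment. The exact two-sided permutation p for mitoxantrone was 0.1 for each ratio, the smallest possible.

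**Figure D3:**
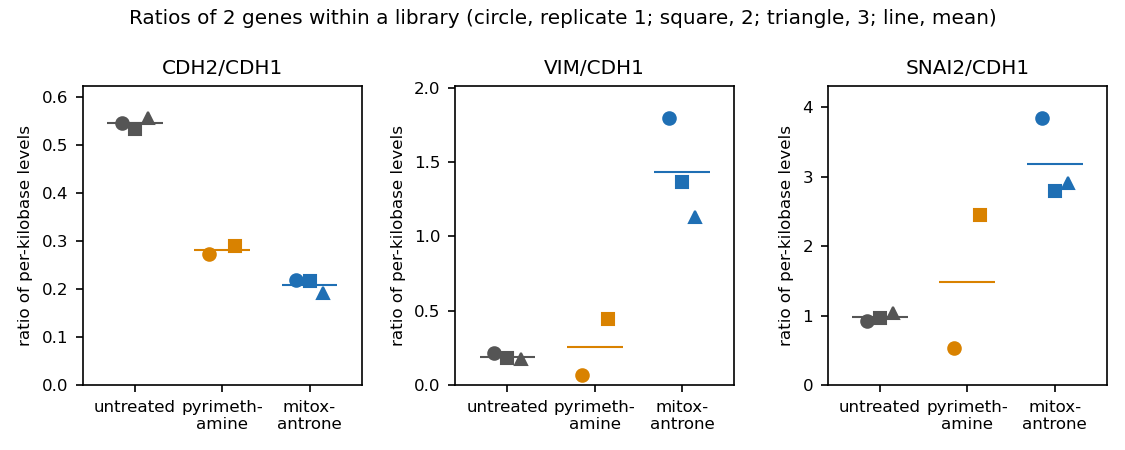
Ratio of per-kilobase levels (no unit, axis from 0) of CDH2, VIM and SNAI2 to CDH1 in each library, with a line at the group mean. The ratio of CDH2 to CDH1 is between 0.534 and 0.557 in untreated cells and below 0.3 in all treated libraries, while the other two ratios are highest with mitoxantrone.

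**Figure D4:**
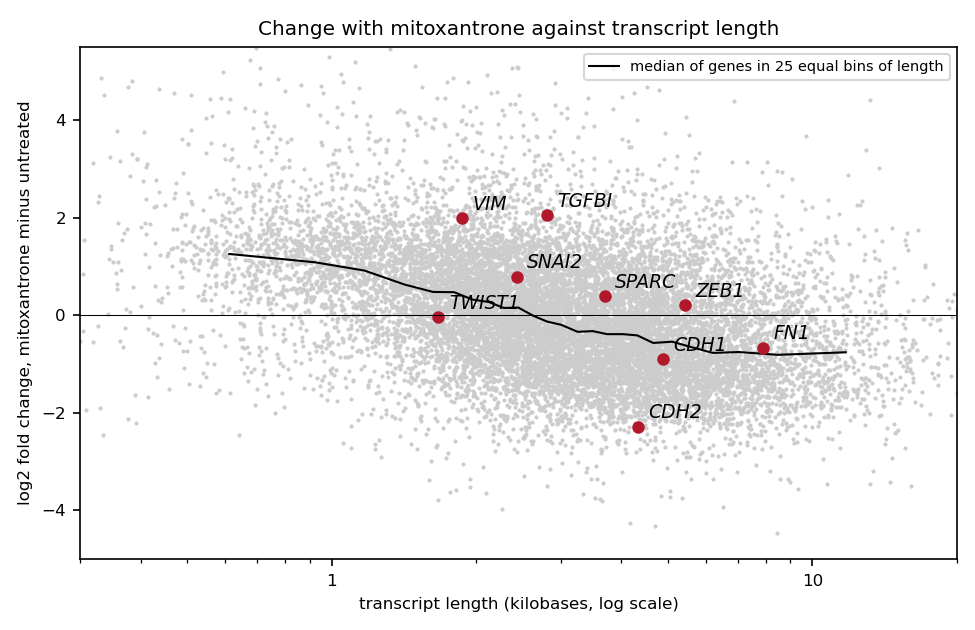
Log2 fold change with mitoxantrone against transcript length (kilobases, log axis) for all tested genes with an annotated length (grey), the median in 25 bins (line) and the 9 members (red). CDH2 lies far below the median of genes of its length, VIM and TGFBI lie far above it, and CDH1 and FN1 lie near it.

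Other genes of the transition were read from 8 lists. No length-adjusted values are given for them, and the part of transcript length in their counts was not tested. The counts describe each list beside the share of all genes called. With all 8 libraries in the fit that share was 54.9% with mitoxantrone, 26.8% higher and 28.1% lower. With pyrimethamine it was 3.6%, 2.29% higher and 1.31% lower. For mitoxantrone against untreated cells that share was 77.1% when either pyrimethamine library was left out and 37% to 44.6% when 1 untreated or mitoxantrone library was. For pyrimethamine against untreated cells it was 47.4% without pyrimethamine replicate 1, 49.3% without replicate 2 and 0.0651% to 0.938% without 1 other library. Among other transcription factors of the programme, 1 of 11 tested genes was higher with mitoxantrone and 5 were lower, with a median log2 fold change of -0.76 against 0.00212 over all tested genes. SNAI1, which encodes Snail, rose by 0.83 ± 0.30 (limma, adjusted p = 0.0463). The E-protein genes TCF3, TCF4 and TCF12, whose products bind E-boxes as dimers, fell by 1.77, 1.68 and 1.30 (limma, adjusted p = 0.00285, 0.00162 and 0.00283). With pyrimethamine limma called 0 of the 11, 6 had an unadjusted p below 0.05, edgeR called 0 and DESeq2 called 3. Of all 15350 tested genes, 2971 had an unadjusted p below 0.05 in the limma fit. Of the same genes edgeR called 4.36% and DESeq2 11.3%.

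Junction genes split. With mitoxantrone 3 of 21 were higher and 5 lower (median -0.36). CLDN1, a tight junction claudin, had normalised read counts of 1217 to 1263 in untreated cells, 2730 and 2930 with pyrimethamine and 4360 to 4630 with mitoxantrone, and rose by 1.19 ± 0.15 and 1.85 ± 0.14 (limma, adjusted p = 0.0127 and 0.000192). OCLN, the tight junction protein occludin, rose by 0.87 and 1.05 (adjusted p = 0.0429 and 0.00177), and CLDN4 rose by 1.18 with pyrimethamine (adjusted p = 0.0213). The polarity gene CRB3 rose by 1.55 with mitoxantrone (adjusted p = 0.00555). The adherens junction gene NECTIN1 fell by 2.84, MARVELD2 by 1.15 and CTNNA1, which links cadherins to actin, by 1.27 (adjusted p = 0.000637, 0.000797 and 0.00933). With mitoxantrone the count was 18 in place of 8 in the fit without pyrimethamine replicate 1 or without replicate 2. With pyrimethamine 3 of 21 were higher and 0 lower; the count was 14 when either pyrimethamine library was left out, 1 without mitoxantrone replicate 1 or 3, and 0 without mitoxantrone replicate 2 or when any one untreated library was left out.

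Other cadherins also split. With mitoxantrone 2 of 7 tested were higher and 2 lower (median 0.10). CDH4, which encodes R-cadherin and is related to CDH2, had values of 259 to 327 in untreated cells, 186 and 88.5 with pyrimethamine and 12.9 to 25.4 with mitoxantrone, and fell by 3.93 ± 0.35 (limma, adjusted p = 0.000299). CDH11, a cadherin of mesenchymal cells, fell by 1.75 (adjusted p = 0.0044). CDH13 rose by 1.07 ± 0.23 with mitoxantrone (adjusted p = 0.00624). CDH24 rose by 1.55 with pyrimethamine and 1.52 with mitoxantrone (adjusted p = 0.0124 and 0.000683); it was the one cadherin of the list called with pyrimethamine. That call was lost when any one untreated library was left out.

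Epithelial regulators and epithelial-restricted genes moved both ways with mitoxantrone, 6 of 22 higher and 7 lower (median 0.09). The splicing regulators ESRP1 and ESRP2, which act on overlapping sets of epithelial exons, moved in opposite directions, by 1.46 ± 0.43 and -1.49 ± 0.23 (limma, adjusted p = 0.0212 and 0.00166), at 11.4 to 22.8 and 469 to 533 in untreated cells. ELF3 rose by 1.53 and AP1M2 by 0.90, and KLF5 fell by 1.25 (adjusted p = 0.000422, 0.0225 and 0.0135). MIR205HG, the host transcript of miR-205, was at 707 to 836 in untreated cells, 176 and 329 with pyrimethamine and 332 to 368 with mitoxantrone. It fell by 1.64 ± 0.26 with pyrimethamine (limma, adjusted p = 0.0207) and by 1.11 ± 0.23 with mitoxantrone (adjusted p = 0.0057). MIR200CHG, the host of miR-200c and miR-141, was at 6.22 to 12.2 in untreated cells and 14.3 to 26.9 with mitoxantrone, a change of 1.10 that did not pass (adjusted p = 0.127). With pyrimethamine OVOL1 and KLF4 rose by 2.23 and 1.29 (adjusted p = 0.0316 and 0.0429). Leaving out any one untreated or mitoxantrone library took the mitoxantrone count from 13 to between 4 and 7, and the pyrimethamine count of 3 to 0.

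Of 19 mesenchymal matrix genes tested, 9 were called lower with mitoxantrone, 4 higher and 6 neither, with a median of -0.75. The shares over all tested genes were 28.1% lower and 26.8% higher. The fibrillar collagen genes COL3A1, COL5A1 and COL1A1 fell by 2.03, 2.03 and 1.28 (limma, adjusted p = 0.000297, 0.00166 and 0.00272). COL3A1 was at 189 to 210 in untreated cells and 46.5 to 49.3 with mitoxantrone. The small proteoglycan gene LUM rose by 3.20 ± 0.83 (adjusted p = 0.0133), from at most 11.4 to at least 34.2, the secreted glycoprotein gene FSTL1 by 1.53 (adjusted p = 0.00105) and SERPINE2 by 0.90 (adjusted p = 0.00482). With pyrimethamine FSTL1 alone was called among 19, higher by 1.31 (adjusted p = 0.0246); the count was 0 when any one untreated or mitoxantrone library was left out, and 10 and 15 without pyrimethamine replicate 1 and replicate 2.

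Contractile genes and matrix receptors gave no common direction. CNN1, a smooth muscle calponin, rose by 1.52 with pyrimethamine and 2.32 with mitoxantrone (limma, adjusted p = 0.0355 and 0.000661), among 3 of 9 contractile genes higher and 2 lower with mitoxantrone. CNN3 and TAGLN2 rose by 0.86 and 1.25, and the actin crosslinker FLNA and CNN2 fell by 1.49 and 0.59 (adjusted p = 0.01, 0.0247, 0.0092 and 0.0329). That count of 5 was 3 when any one untreated library was left out or without mitoxantrone replicate 1 or 2, and 8 without pyrimethamine replicate 1 or 2. Of 12 receptors 2 were higher and 4 lower with mitoxantrone. With pyrimethamine limma called 0 of the 12, edgeR 0 and DESeq2 2, where DESeq2 called 11.3% of all tested genes. An unadjusted p below 0.05 was found for 4 of the 12 and for 2971 of all 15350 tested genes. The syndecans went opposite ways, SDC4 by 2.17 and SDC1 by -1.68 (adjusted p = 0.00088 and 0.000366). The laminin receptor subunit ITGA3 fell by 2.57 and ITGB5 by 1.96, and ITGA4 rose by 1.505 (adjusted p = 0.00109, 0.00143 and 0.0103).

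Genes of the TGF-beta pathway were lower more often than higher with mitoxantrone, 12 against 3 of 25, with a median of -0.72. Over all tested genes 28.1% were called lower and 26.8% higher. The TGF-beta-induced member TGFBI rose. TGFB1, the ligand gene, was at 1524 to 1579 in untreated cells and 568 to 812 with mitoxantrone and fell by 1.22 ± 0.17 (limma, adjusted p = 0.00134). LTBP1 and LTBP4, which store the latent ligand in the matrix, changed by -2.17 and -2.15 (adjusted p = 0.00301 and 0.00187). BAMBI, a decoy receptor, rose from 560 to 637 in untreated cells to 2340 to 2506, a change of 2.04 ± 0.19 (adjusted p = 0.000366), and the SMAD corepressor gene TGIF1 rose by 1.34 (adjusted p = 0.00795). FST, an activin antagonist, rose by 0.50 (adjusted p = 0.022). Other inhibitors of the pathway were among the lower genes. SMURF1, SKI, SKIL and TGIF2 changed by -1.60, -1.22, -0.53 and -1.07 (limma, adjusted p = 0.00387, 0.0132, 0.021 and 0.00328). The counts therefore give no direction of signalling. Of all 15350 tested genes, 2971 had an unadjusted p below 0.05 with pyrimethamine, and edgeR called 4.36% and DESeq2 11.3%. With pyrimethamine limma called 0 of 25, 6 had an unadjusted p below 0.05, edgeR called 1 and DESeq2 called 4; limma called 8 without pyrimethamine replicate 1 and 16 without replicate 2.

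**Figure D5:**
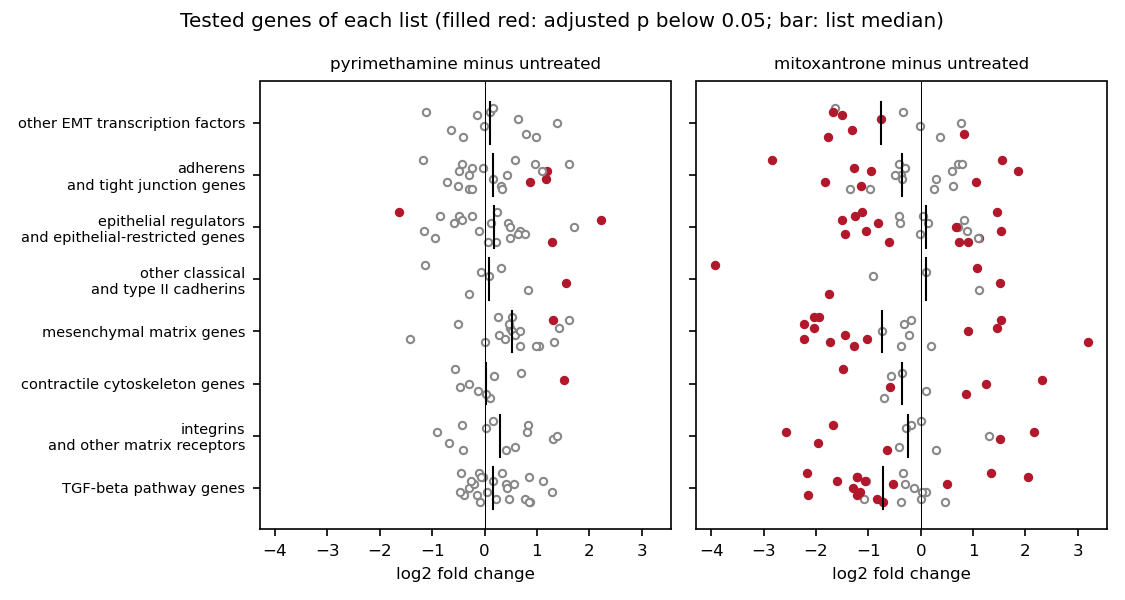
limma log2 fold changes of every tested gene of 8 lists with pyrimethamine (left) and mitoxantrone (right) against untreated cells, filled red where the adjusted p is below 0.05, with a bar at the list median. With mitoxantrone the TGF-beta list has 12 genes called lower and 3 higher, where 28.1% and 26.8% of all tested genes are. With pyrimethamine at most 3 genes of any list are called.

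The genes whose values followed each member most closely over the 8 libraries were taken from genes with a mean of at least 100, by Pearson correlation of log2 values, as a description of 8 points in 3 groups that share libraries. CDH1 was followed by PKP1, a desmosome plaque gene, at 0.997, and DNMT1 at 0.996, and CDH2 by ARHGAP35 at 0.999 and CCAR2 at 0.998. VIM was followed by KCNMB4 at 0.997 and CEP76 at 0.997, TGFBI by CSRP1 at 0.999 and EMC7 at 0.999, and FN1 by RNF20 at 0.994 and SPTBN1 at 0.992. SNAI2 was followed by RMC1 and SLC10A3 at 0.982 each. The low members had weaker matches, TWIST1 with UBASH3B at 0.926, SPARC with LTA4H at 0.957 and CORO1B at 0.951, and ZEB1 with NEDD1 at 0.779 and WDR19 at 0.740.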

How the data were processed

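In the deposited table each library has 1 column, and 0 columns belong to other samples. Per the file's name, the authors normalised gene counts with DESeq2 size factors, which gives a signal that is not a raw count. The tools named, per the submitters' processing notes, are featureCounts 1.5.1, STAR 2.6.90c, cutadapt 1.12 and FastQC 0.11.5, and the build is hg38. Which annotation and strand setting were used is not given in the sources used here. Within each library all values were multiples of 1 step, so reads were recovered (100% whole within a tolerance of 0.1 read).

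Values were tested as log2(value + 1) in limma 3.58.1 under R 4.3.3 (lmFit, then eBayes with a trend), with group as the single term and all 8 libraries in 1 fit. Genes needed a mean of 10 or more, and tests were two-sided, with Benjamini-Hochberg adjustment over 15350 genes and a threshold of 0.05. Since the values are not counts as deposited, edgeR 4.0.16 and DESeq2 1.42.0 on recovered reads were alternatives. In that order limma, edgeR and DESeq2 called 553, 670 and 1738 genes for pyrimethamine against untreated cells, 8430, 8478 and 9238 for mitoxantrone against untreated cells, and 6299, 6713 and 8088 for mitoxantrone against pyrimethamine. Other alternatives were the pseudocount, the filter, scaling, library weights, fits of 2 groups alone, a length adjustment (loess per library, span 0.5), replicate blocks and leaving out each library. Scripts were tested on simulated data.

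Gene positions and transcript lengths came from GENCODE 29, with the longest principal transcript. The members and gene lists were chosen with earlier results of these data known. Besides the members, the named genes are, per list and comparison with untreated cells, up to 3 called genes with the smallest adjusted p in each direction, and per member the 2 most correlated genes. One gene that this rule takes is not reported here. MIR200CHG, COL1A2, DCN, THY1, KRT5, KRT14, KRT17, PERP, SOX2, DSG3, TP63, DSC3 and VWF, and LUM, COL1A1 and COL3A1 as markers, were named after their values were seen. So were SMURF1, SKI, SKIL and TGIF2.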

Additional observations from a re-analysis of the deposited data

How the results depend on the processing

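For mitoxantrone against untreated cells, CDH2, VIM and TGFBI kept their direction and call in all 22 alternatives, with adjusted p of at most 0.00783, 0.0112 and 0.0215. CDH1 lost its call in 12 and SNAI2 in 4, and the cause was not tested. In the fit of the untreated and mitoxantrone libraries alone, the change of CDH1 was the same, -0.90 (limma, adjusted p = 1.02e-05). Leaving out 1 library gave 3 to 6 called members in place of 5, while the share of all genes called ran from 37% to 77.1%. For pyrimethamine the call count is no stable value: 553 genes became 291 without the filter, 322 with quantile normalisation, 1738 with DESeq2, 1115 with length adjustment, 0 in the fit of 2 groups alone (2077 at an unadjusted p below 0.05), 0 with library weights (500) and 0 with a replicate block by title numbers (2084) or description numbers (2027), and 10 to 7571 when 1 library was left out. Called members stayed 0 except when a pyrimethamine library was left out, which gave 0 to 6 over all libraries. For mitoxantrone against pyrimethamine, 6299 genes became 0 in the fit of 2 groups alone (6009 at an unadjusted p below 0.05), 884 with library weights, 0 with either replicate block (7359 and 6499) and 0 to 11638 without 1 library; the 4 called members became 0, 1, 0 and 0 to 6 in these settings. The replicate numbers showed no pairing of untreated with mitoxantrone libraries: deviations of same-numbered libraries correlated at 0.0526, -0.0078 and 0.0183. With 3 libraries per group, such values cannot exclude a pairing or a shared batch.

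Reversals concerned changes that had not passed the test. With quantile normalisation the change with mitoxantrone was -0.12 for SPARC and -0.045 for ZEB1, and that of ZEB1 with pyrimethamine -0.13. TWIST1 with mitoxantrone was 0.019 with upper-quartile scaling, ZEB1 between the compounds was -0.014 with edgeR, and ZEB1 with pyrimethamine was -0.00366 with the block by description numbers. Leaving out 1 library gave, with pyrimethamine, -0.41 to 1.00 for CDH1, -1.31 to 0.0026 for CDH2, -0.94 to 1.21 for FN1, -0.86 to 2.75 for SPARC, -0.52 to 1.37 for TGFBI, -0.45 to 0.82 for VIM and -0.10 to 0.36 for ZEB1. Between the compounds it gave -1.88 to 0.27 for FN1, -0.14 to 0.67 for SNAI2, -2.36 to 1.25 for SPARC and -0.15 to 0.31 for ZEB1, and for TWIST1 with mitoxantrone -0.18 to 0.061. Upper-quartile scaling moved the median over all genes with pyrimethamine from -0.08 to 0.04, and the other scalings moved it by less. SPARC had 13 to 113 reads per library, TWIST1 26 to 107 and ZEB1 28 to 82.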
